A study of Lytechinus variegatus with 18 samples.

Results

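The genes described here encode parts of the cilium and its microtubules in embryos of the sea urchin Lytechinus variegatus. They were taken from the deposited annotation by the name of their best match in the purple sea urchin Strongylocentrotus purpuratus (names that begin with Sp-): intraflagellar transport (Ift), Wdr35, Kif3, Bbs, axonemal dynein chains (Dnah, Dnai, Dnal, Dyh), Tekt, Rsph or Rsp with a number, Spag, Tuba, Tubb and Ttll. Of 27230 gene models in the count table, 83 carried such a name, and 79 of them had a mean count of at least 5 over the 18 libraries and are the members. The libraries were made from whole wild-type embryos, about 150 per sample, in 6 groups of 3 biological replicates. Ethanol embryos had been given ethanol at fertilization, and each sample was taken 15, 18 or 21 hours after it (hpf). Control embryos were sampled at the same 3 times. The labels give neither the ethanol dose nor what the control embryos received, and do not say whether replicates came from separate parents, so p-values measure only the spread between these samples. The comparison asks whether ethanol at fertilization left the messages of the ciliary machinery at another level.

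A motile cilium is built on an axoneme, a cylinder of doublet microtubules polymerised from alpha and beta tubulin. Axonemal dynein heavy chains are the motors that bend it, radial spokes regulate them, and tektins are filamentous proteins within the doublets. The cilium is assembled by intraflagellar transport, in which trains of IFT proteins are carried to the tip by kinesin-2, while the BBSome, an adaptor complex, rides on these trains and moves membrane proteins. The blastula of a sea urchin swims with cilia that cover its surface, long cilia form a tuft on the apical plate, and the larva swims and feeds with a ciliary band.

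The libraries held 7133636 to 8000894 counts each, of which the members took 29581 to 52907. Levels are given as CPM, that is counts set against library size, after scaling by trimmed means of M values (TMM), a method that centres most genes. TMM factors were 0.824 to 1.27 in ethanol libraries and 0.752 to 1.1 in control libraries, so the scaling bears on direction. Scaled to library totals alone, an alternative added after the data were seen, the median over all 18674 gene models tested was 0.32 at 15 hpf and 0.36 at 18 hpf on the log2 scale of ethanol over control. With TMM it was 0.041 and 0.054, and values below are therefore relative to the typical gene model. The libraries of number 3 at 21 hpf stood apart. Their ethanol minus control differences across all gene models correlated at -0.754 with the mean of the other 8 same-numbered differences, which each correlated at 0.597 to 0.745 with the rest. For the members, the library labelled ethanol 3 at 21 hpf was above the library labelled control 3 in 57 of 78, with a median difference of 0.39 on the log2 scale. In the other 8 such differences the members' median was -0.26 to -0.50. Both libraries kept their labels, the cause was not tested, and group medians and counts of calls that rest on 21 hpf are given with and without them.

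**Figure D1:**
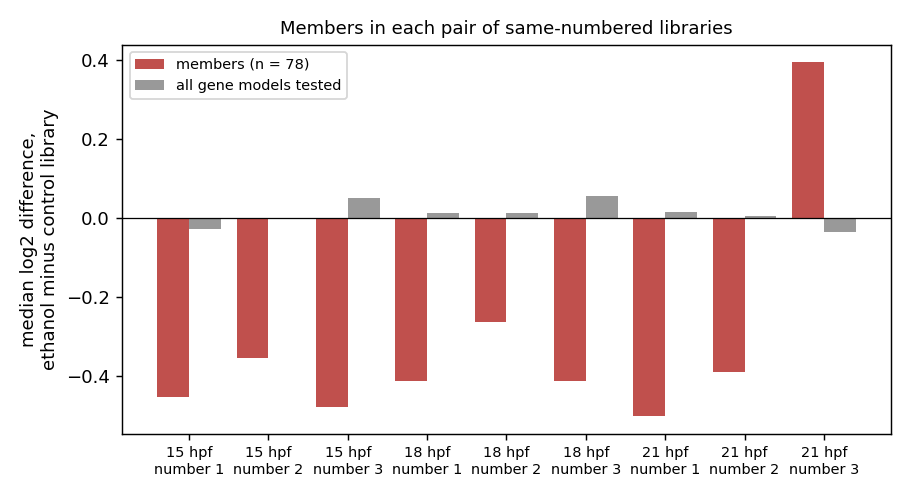
Median log2 difference, ethanol minus control library, over the 78 members tested (red) and over all gene models tested (grey) for each time and replicate number. The members' bar is below 0 in 8 of 9 sets, and at 21 hpf number 3 it reaches 0.39.

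Of the 79 members, 78 passed the filter on low counts and were tested. The exception was Sp-Dnah8 (L_var_08997), with a mean count of 5.11 and 0 to 12 counts per library, which was also the member just inside the threshold; Sp-Dnah5 (L_var_10352), with a mean of 2.5 and 0 to 8 counts, was just outside. By role, 17 members belonged to intraflagellar transport with kinesin-2, 13 to the BBSome, 18 to dynein heavy chains, 1 to radial spokes, 4 to tektins, 8 to Spag genes, 6 to alpha tubulins, 1 to beta tubulins and 11 to the tubulin tyrosine ligase-like (Ttll) family. No dynein intermediate or light chain carried a Dnai or Dnal name. The members bore 59 names, and 19 names were shared by more than 1 gene model, 39 members in all, so reads of near-identical copies could have been split between them. For 5 members the other database hits named another protein: Sp-Ift122h, Sp-Kif3BL2, 1 of the 2 Sp-Bbs2 models (L_var_07323), 1 of the 2 Sp-Dnahc8 models (L_var_08924) and 1 of the 2 Sp-Spag1 models (L_var_13024). The files used here hold no transcript lengths, so levels are compared between groups and not between genes.

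Transport, tektin and spoke messages, and most BBSome messages, were lower in ethanol embryos than in controls at 15 and 18 hpf. Dynein heavy chains and the Ttll family had members on both sides, and most alpha tubulins had a positive fold change. All 17 members of the transport group, which was sorted by name, had a negative fold change at both times, with medians of -0.65 at each on the log2 scale. All 4 tektins did as well, with medians of -1.04 and -0.89. Over the 78 members the median was -0.40 at 15 hpf, against 0.041 over all gene models tested, -0.38 at 18 hpf, against 0.054, and -0.15 at 21 hpf, against -0.025. Without both 21 hpf libraries of number 3 the members' median at 21 hpf was -0.46, against 0.022 over all gene models, and by role it was -0.68 for transport, -0.56 for the BBSome, -0.68 for tektins, -0.16 for dynein heavy chains and 1.15 for alpha tubulins. With them the medians were -0.30 for transport, -0.18 for the BBSome, -0.21 for tektins, -0.060 for dynein heavy chains and -0.15 for alpha tubulins. In all 3 ethanol libraries 26 of 78 members were below all 3 control libraries at 15 hpf (33.3%, background over all gene models 7.46%), and 29 at 18 hpf (37.2%, background 13.8%). At both times together 22 members were (28.2%, background 4.66%). The opposite order was found for 4 members at 15 hpf (background 6.72%), 4 at 18 hpf (background 13.5%) and 2 at both times (background 3.34%). At 21 hpf 3 members were below (background 1.27%) and 1 above (background 1.04%). Scaled to library totals alone, 18 members were below all controls at 15 hpf (23.1%, background 4.13%) and 16 at 18 hpf (20.5%, background 6.85%). Relative to the median of all gene models the members' median was then -0.45 at both times. Transport members and tektins kept a negative sign in 17 of 17 and 4 of 4 with that scaling, and BBSome members in 8 of 13.

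Counts with the replicate number as a block in the fit are given at the end. With all libraries, edgeR and no such block, single members rarely passed the test over all gene models. In its quasi-likelihood test with Benjamini-Hochberg adjustment, 0 members passed at 15 hpf (background lower 0.0589%, higher 0%), where 24 were lower and 2 higher at an unadjusted p under 0.05 (background 6.24% and 4.67%). At 18 hpf 0 passed (background 0%), with 24 lower and 3 higher unadjusted (background 8.2% and 8.24%), and at 21 hpf 0 passed (background 0%), with 1 lower and 1 higher (background 0.353% and 0.332%). DESeq2 called 2 members at 15 hpf, both lower (background lower 0.711%, higher 0.267%), 3 at 18 hpf, all lower (background lower 1.2%, higher 0.578%) and 0 at 21 hpf (background 0%), and limma-voom 0 at each. Averaged over the 3 times, 1 member fell, Sp-Rsp3h (background lower 0.386%, higher 0.145%), and 32 members were lower and 3 higher unadjusted (background 12.5% and 10.5%). DESeq2 called 23 for this average, 22 lower (background 4.56%) and 1 higher (background 3.24%), and limma-voom 0. Without both 21 hpf libraries of number 3, 79 members were tested and the average was called for 35, of which 32 fell (background 9.86%) and 3 rose (background 8.47%). At 15 hpf 0 were then called (background lower 0.257%, higher 0.157%). At 18 hpf 0 rose (background 0.67%) and 3 fell (background 0.984%), Sp-Ift80L1, Sp-Rsp3h and 1 Sp-Ift81h model (L_var_24605), and at 21 hpf 0 were called (background 0.0314% in each direction), with 21 lower and 2 higher unadjusted (background 5.53% and 5.25%). These 2 libraries were left out because their ethanol minus control difference across all gene models runs against the others. That difference is also what is tested, so leaving them out tends to lower p-values for ethanol. Over all gene models, calls in the average went from 99 to 3500. The choice was made with results of these data known, and p-values without these libraries, here and below, are descriptions only. No member passed the test for a dependence of the ethanol effect on time (background 0%) with edgeR, DESeq2 or limma-voom, and 2 did at an unadjusted p under 0.05 (background 2.21%).

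**Figure D2:**
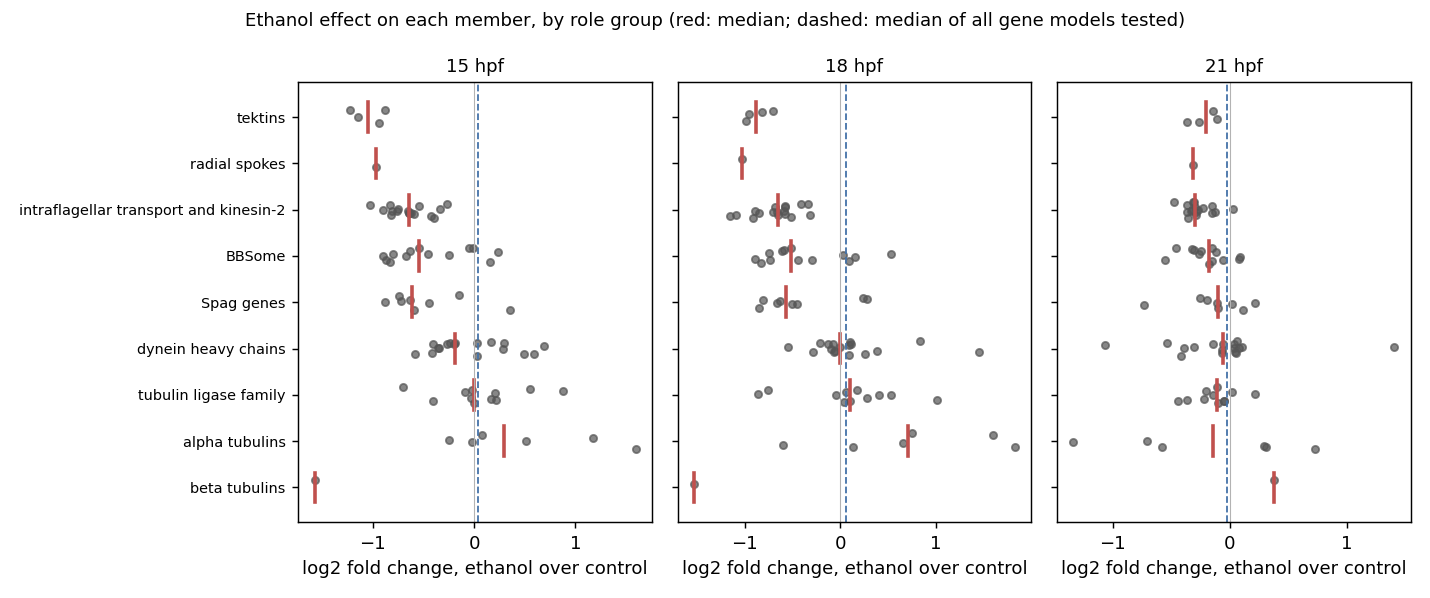
Log2 fold change, ethanol over control, of each tested member at 15, 18 and 21 hpf, in rows by role; red bars are the medians of each role and the dashed line is the median of all gene models tested. At 15 and 18 hpf the 17 transport members and the 4 tektins lie left of 0, while dynein heavy chains lie on both sides.

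By name, intraflagellar transport with kinesin-2 was the largest role group with 1 direction at 15 and 18 hpf. Its members include Sp-Ift122h and Sp-Kif3BL2, whose other database hits name another protein. At 15 hpf 12 of its 17 members had all ethanol libraries below all controls (70.6%, background 7.46%), at 18 hpf 12 (background 13.8%), and at both times 10 (58.8%, background 4.66%). Sp-Ift80L1 (L_var_23814, chr16:3347205-3363002, minus strand), a match of IFT80 in the complex that carries cargo to the tip, had 26, 46.1 and 25.3 CPM in ethanol embryos, against 64.1, 71.9 and 62.5 CPM in control embryos at 15 hpf. At 18 hpf it had 33.5, 35.6 and 24 CPM in ethanol embryos, against 69.3, 70.0 and 59.8 CPM in control embryos. Ethanol libraries were at or below 46.1 CPM and controls at or above 59.8 CPM at these 2 times, without overlap. At 21 hpf it had 36.7, 34.2 and 65.3 CPM in ethanol embryos, against 82.5, 73.4 and 33.5 CPM in control embryos, and the groups overlapped through the third library of each. Its log2 fold change was -1.03 ± 0.33 (SE) at 15 hpf and -1.10 ± 0.33 at 18 hpf, and the average over the 3 times was -0.87 ± 0.19 (edgeR adjusted p = 0.0512). Leaving out both 21 hpf libraries of number 3, the average fell by 1.09 (SE 0.147, adjusted p = 0.000557).

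Sp-Ift81h was represented by 2 gene models on chromosome 16, whose product is known from other species to bind tubulin together with that of Ift74. The model L_var_24608 (chr16:27942023-27951806, minus strand) had 17.7, 23.4 and 15.3 CPM in ethanol embryos, against 28.3, 47 and 29.8 CPM in control embryos at 15 hpf and 13.6, 17.7 and 16.5 CPM in ethanol embryos, against 29.99, 32.5 and 27.7 CPM in control embryos at 18 hpf. At both times the highest ethanol library stayed under the lowest control. Its average log2 fold change was -0.73 ± 0.17 (adjusted p = 0.0512). The second model, L_var_24605 (plus strand, 188296 bases away), was correlated with it at 0.852 over the 18 libraries and had 24, 22.7 and 20.7 CPM in ethanol embryos, against 40.1, 39.9 and 45.3 CPM in control embryos at 18 hpf. It too was lower in all ethanol libraries at 15 and 18 hpf.

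The other transport members had the same sign at 15 and 18 hpf. Sp-Ift57_1 (L_var_15167) averaged 33.2 ± 7.69 CPM in ethanol embryos and 59.7 ± 4.33 CPM in control embryos (SD, n = 3 each) at 18 hpf. Sp-Ift52_1, Sp-Ift122Ap, Sp-Ift74 and 1 of the 2 Sp-Ift88_1 models (L_var_09051) were below all controls in all ethanol libraries at both times, with log2 fold changes at 15 hpf of -0.83, -0.81, -0.64 and -0.76. Among the genes of the complex that carries cargo back to the cell body, Sp-Ift140 had -0.65 and the 3 Sp-Wdr35 models -0.65, -0.59 and -0.55 at 15 hpf. The smallest differences at 15 hpf were those of Sp-Ift122h (-0.27), Sp-Ift172_2 (-0.33) and Sp-Ift20 (-0.40). Sp-Kif3BL2 (L_var_01105), named for a kinesin-2 motor subunit although its other hits name the kinesins Kif14 and KIN-4A, had 82.4, 66.8 and 96.3 CPM in ethanol embryos, against 170.0, 151.2 and 225 CPM in control embryos at 18 hpf. Its groups did not overlap at 15 or 18 hpf, and its log2 fold change at 18 hpf was -1.15 ± 0.34 (adjusted p = 0.232). At 21 hpf the group's median was -0.30 with all libraries and -0.68 without those of number 3. Without those libraries 14 of the 17 fell in the average over times (background 9.86%).

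The BBSome members divided by gene. Sp-Bbs1 (L_var_14352, chr7:44377559-44412394, plus strand), a core subunit, had 11, 12.4 and 11.9 CPM in ethanol embryos, against 19.9, 23.7 and 22.6 CPM in control embryos at 15 hpf and 13.9, 17.3 and 11.8 CPM in ethanol embryos, against 26.8, 21.8 and 23.4 CPM in control embryos at 18 hpf. All ethanol libraries were under all controls at both times, and the average log2 fold change was -0.70 ± 0.18 (adjusted p = 0.0623). Of the 13 members, 6 were below without overlap at 15 hpf (background 7.46%), 7 at 18 hpf (background 13.8%) and 5 at both times (background 4.66%), and the medians were -0.54 and -0.52. Sp-Bbs4 (L_var_03721), both Sp-Bbs7 models, both Sp-Bbs9 models and 1 Sp-Bbs2 model (L_var_07262) had log2 fold changes of -0.54 to -0.87 at 15 hpf. Sp-Bbs6 and Sp-Bbs10L, matches of chaperonin-like proteins that assemble the complex in vertebrates, and Sp-Bbs5 were between -0.051 and 0.16 at 15 hpf. Sp-Bbs10L (L_var_04096) instead had 5.26, 8.31 and 6.27 CPM in ethanol embryos, against 8.82, 10.5 and 9.87 CPM in control embryos at 21 hpf, where its groups did not overlap (log2 fold change -0.55 ± 0.24, adjusted p = 1, and -0.51 without both libraries of number 3, adjusted p = 0.571).

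The 2 gene models named Sp-Bbs2 ran against each other over the 18 libraries, with a correlation of -0.663. L_var_07262 had 49.6, 53 and 41.6 CPM in ethanol embryos, against 66.4, 77 and 67 CPM in control embryos at 15 hpf, with no overlap of the groups. L_var_07323 averaged 329.8 ± 97.7 CPM in ethanol embryos and 280.3 ± 55.7 CPM in control embryos (SD, n = 3 each) at 15 hpf, and its groups overlapped. Its other database hits name the histone demethylase Kdm5c. Without both 21 hpf libraries of number 3, 8 of the 13 BBSome members fell in the average over times (background 9.86%), among them L_var_07262 and not L_var_07323.

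Tektins showed the lowest medians of the groups with several members at 15 and 18 hpf. Sp-Tektin3 (L_var_17574, chr10:20507533-20520898, minus strand) had 437, 430.1 and 263 CPM in ethanol embryos, against 1063, 925 and 652 CPM in control embryos at 15 hpf. At 18 hpf it had 447, 355 and 297 CPM in ethanol embryos, against 976, 601 and 607 CPM in control embryos. Every ethanol library was under every control at these times, and at 18 hpf the nearest libraries were ethanol 1 and control 2. At 21 hpf it had 429, 321 and 545 CPM in ethanol embryos, against 658, 503 and 272 CPM in control embryos, and the groups overlapped. The log2 fold change was -1.22 ± 0.35 at 15 hpf (adjusted p = 0.294), and its average over times was -0.79 ± 0.20 (adjusted p = 0.0623). Sp-Tektin1-1 and Sp-Tektin1-4 also showed no overlap at 15 or 18 hpf, and Sp-Tektin2 none at 18 hpf, with log2 fold changes at 15 hpf of -1.15, -0.88 and -0.94. The 4 tektins moved together over the 18 libraries, with a median correlation between pairs of 0.911, which is a description of libraries that share treatment, time and scaling. All 4 fell in the average over times, by 0.71 to 0.95, when both 21 hpf libraries of number 3 were left out (background 9.86%).

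Sp-Rsp3h (L_var_08929, chr4:35215726-35222684, minus strand) was the only radial spoke member. It was also the only member that passed edgeR's test in the average over times with all libraries and no replicate block. Its relative RSP3 in the alga Chlamydomonas anchors the spoke to the doublet. It had 106, 162 and 87.4 CPM in ethanol embryos, against 225, 257 and 213 CPM in control embryos at 15 hpf and 113.4, 106.8 and 87.3 CPM in ethanol embryos, against 225, 209 and 195 CPM in control embryos at 18 hpf. The groups were apart at both times, with ethanol 2 at 15 hpf the closest to the controls. At 21 hpf it had 122, 105 and 169 CPM in ethanol embryos, against 211, 179.6 and 102.8 CPM in control embryos, and the groups overlapped. Averaged over times, the log2 fold change came to -0.77 ± 0.16 (SE; edgeR's adjusted p = 0.0457). The call was lost with limma-voom (adjusted p = 0.0608), with library totals alone (0.0568), without replicate 1 (0.557) and without replicate 2 (0.308). When both 21 hpf libraries of number 3 were left out it fell by 0.93 (adjusted p = 0.00117).

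**Figure D3:**
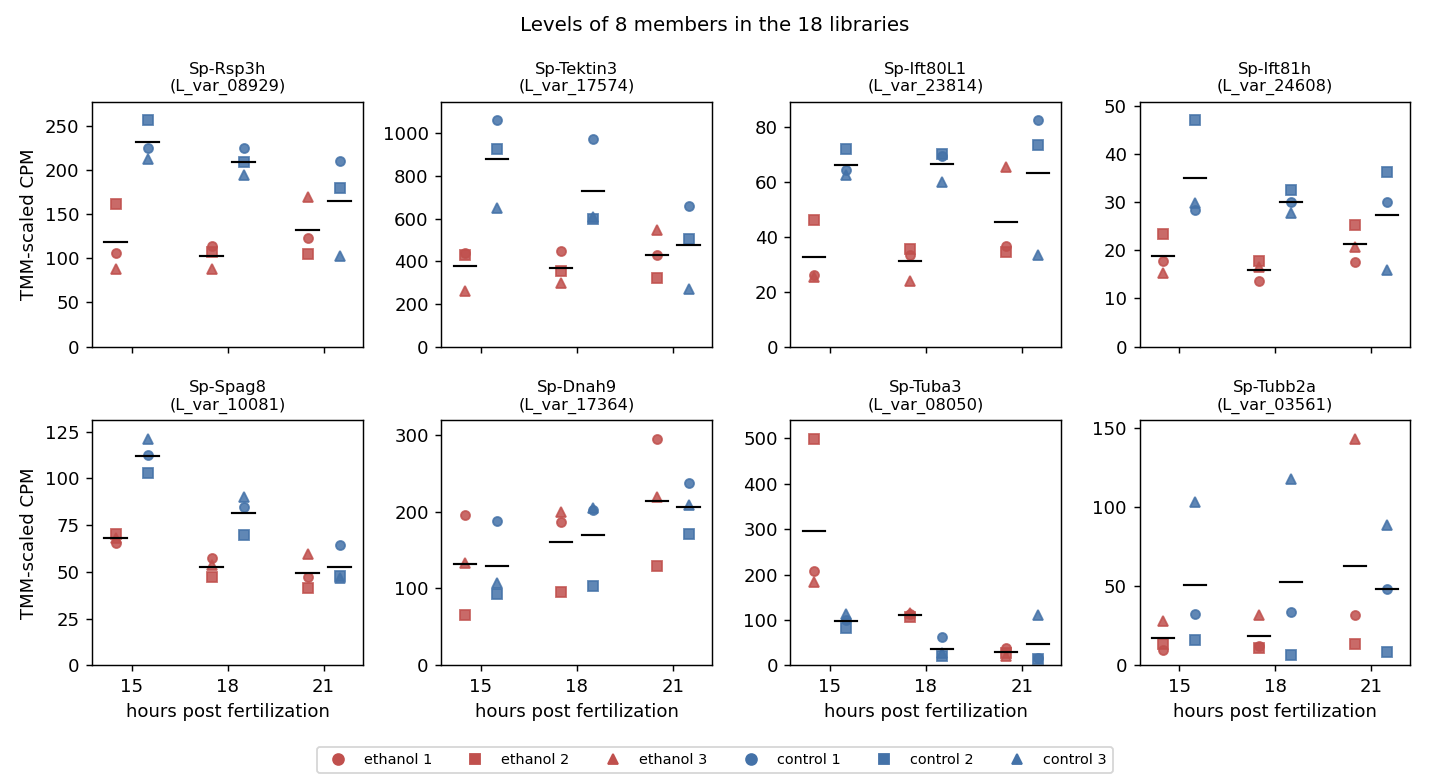
TMM-scaled CPM of 8 members in each library by hours post fertilization, ethanol in red left of control in blue, with a marker shape for each replicate number and a bar at each group mean. Sp-Rsp3h, Sp-Tektin3, Sp-Ift80L1, Sp-Ift81h and Sp-Spag8 show separate groups at 15 and 18 hpf, Sp-Dnah9 and Sp-Tubb2a overlap throughout, and Sp-Tuba3 is higher in ethanol libraries at those times.

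Spag genes, named for sperm-associated antigens, include structural parts of the axoneme. Sp-Spag8 (L_var_10081, chr5:4877436-4887913, plus strand) had 65.3, 70.3 and 68.3 CPM in ethanol embryos, against 112, 102.9 and 121 CPM in control embryos at 15 hpf and 57.4, 47.4 and 53.4 CPM in ethanol embryos, against 84.8, 69.8 and 90.2 CPM in control embryos at 18 hpf. Its replicates lay close together and its groups did not overlap at either time, with a log2 fold change of -0.72 ± 0.19 at 15 hpf (adjusted p = 0.286). Sp-Spag16 and Sp-Spag6, whose mouse relatives sit in the central apparatus of the axoneme, had -0.85 ± 0.28 and -0.81 ± 0.27 at 18 hpf. Both were below all controls in all ethanol libraries at that time. Sp-Spag6 (L_var_20712) averaged 212 ± 37.6 CPM in ethanol embryos and 371 ± 35.1 CPM in control embryos (SD, n = 3 each) at 18 hpf. The 2 Sp-Spag17 models were at -0.44 and -0.59 at 15 hpf. The 2 Sp-Spag1 models, named for a human factor for dynein arm assembly, were at -0.15 and 0.36 and overlapped. For the model at 0.36 (L_var_13024) the other database hits name another protein.

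Dynein heavy chains, the motors of the axoneme, gave no common direction. Over 17 tested members the medians on the log2 scale were -0.19 at 15 hpf, -0.0010 at 18 hpf and -0.060 at 21 hpf, and 9 of 17 were negative at each time. No member was below all controls in all ethanol libraries at 15 or 18 hpf, and both Sp-Dnah3_2 models were at 21 hpf. Under library totals alone the median was 0.088 at 15 hpf and 0.30 at 18 hpf, so that its sign turned with the scaling. Relative to the median of all gene models it was then -0.23 and -0.054, against -0.23 and -0.055 with TMM. Sp-Dnah9 (L_var_17364, chr10:14298538-14332973, plus strand), an outer arm motor in vertebrates, averaged 132 ± 65.2 CPM in ethanol embryos and 129 ± 51.1 CPM in control embryos (SD, n = 3 each) at 15 hpf and had 186, 95.8 and 199.7 CPM in ethanol embryos, against 202, 103.2 and 205 CPM in control embryos at 18 hpf. The groups covered the same range, with number 2 lowest in each, and the average log2 fold change was 0.002 ± 0.24. Sp-Dnah5 (L_var_10348) was above all controls in all ethanol libraries at each time, at few counts: 1.33, 1.71 and 2.34 CPM in ethanol embryos, against 1.16, 1.02 and 1.13 CPM in control embryos at 15 hpf and 1.45, 3.15 and 1.44 CPM in ethanol embryos, against 0.128, 0.886 and 1.23 CPM in control embryos at 21 hpf. Its average was 1.19 ± 0.34 (adjusted p = 0.0824), and 1.44 ± 0.36 without both 21 hpf libraries of number 3 (adjusted p = 0.016).

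Tubulins, which also build the spindle and the cytoplasmic microtubules, differed from model to model. The 6 alpha tubulins had medians of 0.29 at 15 hpf, with 4 positive, and 0.70 at 18 hpf, with 5 positive. Of the 6, 2 were above all controls in all ethanol libraries at 15 hpf (background 6.72%) and 2 at 18 hpf (background 13.5%). The 2 alpha tubulin models named Sp-Tuba3 were those furthest above control at 15 hpf. L_var_08050 (chr4:9296543-9306557, minus strand) had 208, 499.6 and 183 CPM in ethanol embryos, against 99.2, 81.9 and 113.2 CPM in control embryos at 15 hpf and 112, 106 and 116 CPM in ethanol embryos, against 61.7, 21 and 27.5 CPM in control embryos at 18 hpf. All ethanol libraries exceeded all controls at both times, although ethanol 2 at 15 hpf stood alone at 499.6 CPM. At 21 hpf it had 37.8, 27.3 and 20.5 CPM in ethanol embryos, against 15.7, 12.8 and 111 CPM in control embryos, where the library labelled control 3 was the highest of the 6. On the log2 scale ethanol differed from control by 1.60 ± 0.65 at 15 hpf (adjusted p = 0.413), by 1.60 ± 0.65 at 18 hpf and by -0.70 ± 0.64 at 21 hpf. In the average over times it rose by 1.46 without both 21 hpf libraries of number 3 (adjusted p = 0.00258), against 0.83 ± 0.37 with them (adjusted p = 0.194). The second model, L_var_08167, was correlated with it at 0.913 over the 18 libraries and had 411, 262 and 385 CPM in ethanol embryos, against 189.5, 62.2 and 216.1 CPM in control embryos at 15 hpf. It was above all controls at 15 hpf and overlapped them at 18 hpf.

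A pair of other tubulin members differed most between replicate numbers. Sp-Tuba2 (L_var_09856) had 6, 333 and 25.1 CPM in ethanol embryos, against 18.5, 357 and 56 CPM in control embryos at 15 hpf, with library 2 far above the others in both groups. The only beta tubulin, Sp-Tubb2a (L_var_03561), had 9.56, 13.5 and 27.9 CPM in ethanol embryos, against 32.6, 16.2 and 103.1 CPM in control embryos at 15 hpf and 12, 10.6 and 31.9 CPM in ethanol embryos, against 33.7, 6.67 and 118 CPM in control embryos at 18 hpf, with library 3 highest in both groups. Its log2 fold change of -1.57 ± 1.03 at 15 hpf has an unadjusted edgeR p of 0.145. In these 2 members 1 library stood above the others, and neither showed separate groups at any time.

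Enzymes of the Ttll family add glutamate or glycine to tubulin tails, and the 11 members had medians of 0.0030 at 15 hpf and 0.10 at 18 hpf. Sp-Ttll9 was the name with the lowest values. Its 2 models, L_var_03668 and L_var_03913, lay 7057533 bases apart on chromosome 2, and they were correlated at 0.888 over the 18 libraries. L_var_03913 had 10.2, 11.1 and 7.51 CPM in ethanol embryos, against 18.3, 19.4 and 14.6 CPM in control embryos at 18 hpf, and L_var_03668 had 13.6, 17.1 and 14.6 CPM in ethanol embryos, against 24.4, 27 and 25.1 CPM in control embryos. Both were under all controls in all ethanol libraries at that time, and both fell in the average over times without both 21 hpf libraries of number 3 (by 0.66 and 0.69). Sp-TtlL2 (L_var_09133) went the other way at 18 hpf, with 4.8, 4.83 and 7.82 CPM in ethanol embryos, against 2.67, 1.79 and 4.15 CPM in control embryos and a log2 fold change of 1.01 ± 0.42 (adjusted p = 0.268). Sp-Ttll11 (L_var_23235) averaged 63.1 ± 23.1 CPM in ethanol embryos and 67.3 ± 20.0 CPM in control embryos (SD, n = 3 each) at 15 hpf and overlapped at each time.

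**Figure D4:**
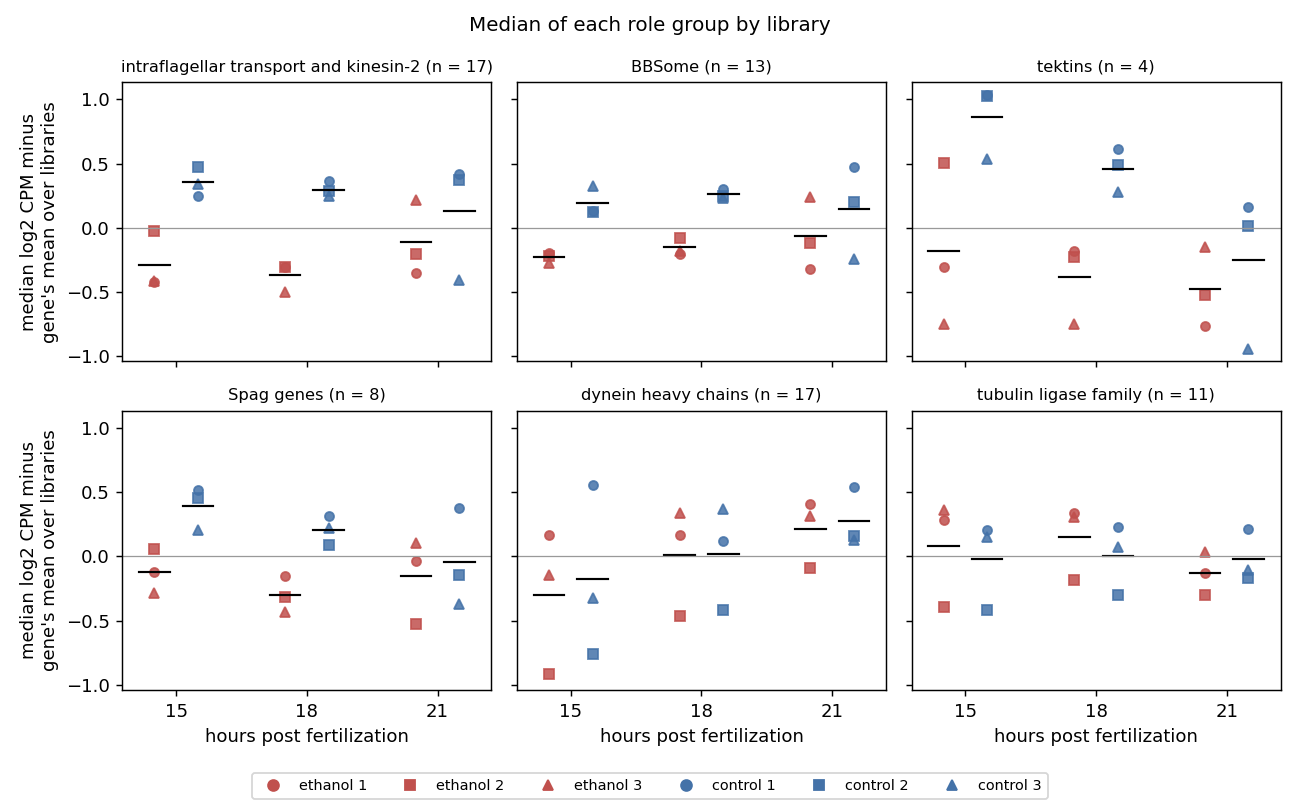
For 6 role groups, the median over members of log2 CPM minus each gene's mean over the 18 libraries, by hours post fertilization, with 1 point per library (ethanol red, control blue) and a bar at the mean of 3. In intraflagellar transport and the BBSome the ethanol points lie below the control points at 15 and 18 hpf, and at 21 hpf the 2 points of number 3 lie on the opposite sides.

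The same order was seen in library medians of role groups. At 15 hpf the median of the transport members was -0.42, -0.026 and -0.41 in ethanol libraries, against 0.25, 0.47 and 0.34 in control libraries, as log2 CPM relative to each gene's mean. At 18 hpf it was -0.30, -0.31 and -0.50 in ethanol libraries, against 0.36, 0.28 and 0.24 in control libraries. No ethanol library reached a control library at either time. At 21 hpf the libraries labelled ethanol had -0.35, -0.20 and 0.21 and those labelled control 0.42, 0.37 and -0.41, with number 3 on the opposite sides. Members of transport had a median correlation between pairs of 0.746 over the 18 libraries, dynein heavy chains 0.64, the BBSome 0.201, and all members 0.0819. Members of 1 role that share a name or a region may share reads as well, and these correlations describe libraries that share treatment and replicate number.

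With time, tektins were lower in control embryos at 21 hpf than at 15 hpf, and most dynein heavy chains higher. Over 21 minus 15 hpf in control embryos the median log2 change was -1.07 for tektins, 0.31 for dynein heavy chains (15 of 17 positive) and 0.026 for all members, against 0.011 for all gene models tested. In 3 of 4 tektins all 21 hpf control libraries were below all 15 hpf control libraries. Of the members, 7 were below (background 8.84%) and 2 above (background 9.61%). At an unadjusted p under 0.05, 1 member was higher (background 9.67%) and 6 lower (background 8.04%). The edgeR test with adjustment called 3 members, 1 higher (background 2.39%) and 2 lower (background 1.49%), and, without both 21 hpf libraries of number 3, 1 higher (background 3.52%) and 2 lower (background 1.93%). Sp-Dnah3_2 (L_var_06029), a match of an inner arm heavy chain in vertebrates, rose to 18.9, 22.6 and 15.9 CPM in control embryos at 21 hpf, against 8.09, 5.28 and 6.34 CPM at 15 hpf (log2 change 1.53 ± 0.29, adjusted p = 0.00891). Sp-Tektin1-1 (L_var_17653) fell to 306, 303 and 150.3 CPM at 21 hpf, against 665, 615 and 552 CPM at 15 hpf (log2 change -1.27 ± 0.34, adjusted p = 0.0445). Without the library labelled control 3 at 21 hpf and its ethanol counterpart the log2 change of Sp-Tektin1-1 was -1.003 (adjusted p = 0.106). Sp-Spag8 fell to 64.2, 47.5 and 46.6 CPM in control embryos at 21 hpf, against 112, 102.9 and 121 CPM at 15 hpf (log2 change -1.09 ± 0.20, adjusted p = 0.00686, and 0.0106 without both libraries of number 3). Each of the 3 calls was lost when replicate 1, 2 or 3 was left out of all groups (edgeR adjusted p 0.0813 to 0.277). Scaled to library totals alone, the medians were -0.95 for tektins and 0.39 for dynein heavy chains. Without both libraries of number 3 they were -0.77 for tektins, 0.43 for dynein heavy chains and 0.059 for all members, against -0.058 for all gene models.

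In ethanol embryos the change from 15 to 21 hpf had a median of 0.17 over the members, against -0.062 over all gene models, and -0.36 in tektins. Of the 17 dynein heavy chains, 16 were positive, with a median of 0.42. Without both libraries of number 3 the median was 0.036 over the members, against -0.065 over all gene models, -0.50 in tektins and 0.39 in dynein heavy chains. All 21 hpf ethanol libraries were below all 15 hpf ethanol libraries for 5 members (background 8.39%) and above them for 3 (background 9.89%). At an unadjusted p under 0.05, 2 members were higher (background 9.37%) and 4 lower (background 6.47%). The adjusted test called 0 higher (background 2.97%) and 1 lower (background 0.776%), and the same without both libraries of number 3 (background 2.28% and 0.398%). Sp-Tuba3 (L_var_08050) fell to 37.8, 27.3 and 20.5 CPM at 21 hpf, against 208, 499.6 and 183 CPM at 15 hpf (log2 change -3.38 ± 0.69, adjusted p = 0.0108). DESeq2 called 3 members here, all lower (background lower 2.34%, higher 5.39%). The call of Sp-Tuba3 was lost without replicate 1 (adjusted p = 0.109) and without replicate 2 (0.0827). In control embryos the same gene was at 15.7, 12.8 and 111 CPM at 21 hpf and 99.2, 81.9 and 113.2 CPM at 15 hpf, with the library labelled control 3 at 21 hpf far above the other 2. Its change was -1.08 ± 0.64 with that library (adjusted p = 0.419) and -2.78 without both libraries of number 3 (adjusted p = 0.0059). The difference between ethanol and control embryos in this change is part of the test of dependence on time, where the gene had an unadjusted p of 0.0331 and an adjusted p of 1. With all libraries the medians of transport members over 21 minus 15 hpf were 0.16 in ethanol embryos (13 of 17 positive) and -0.27 in control embryos (14 of 17 negative). Without both libraries of number 3 they were -0.010 in ethanol embryos and -0.019 in control embryos.

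**Figure D5:**
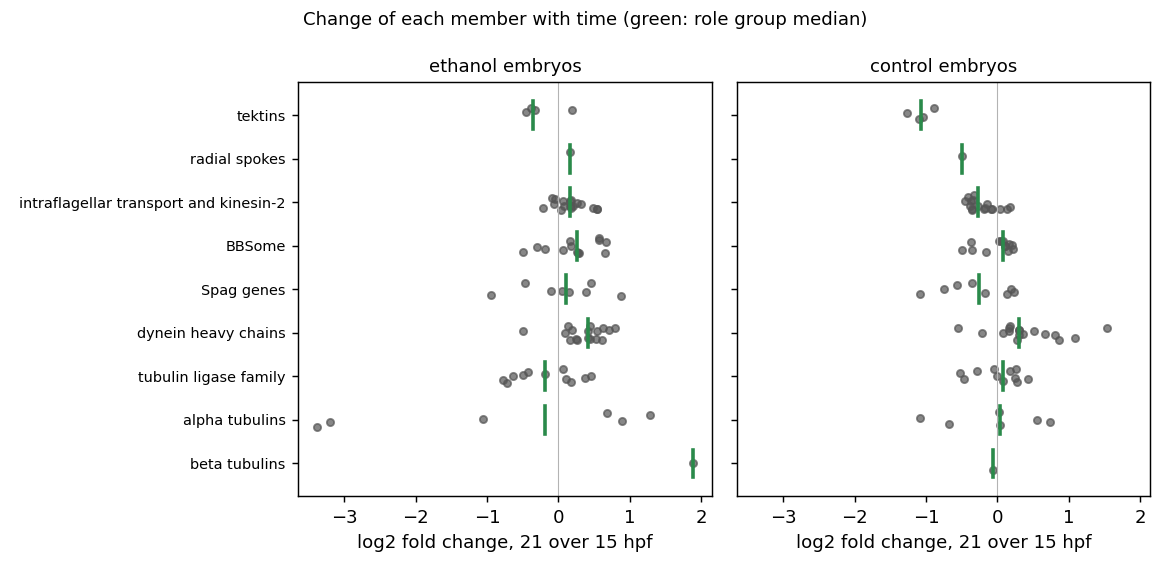
Log2 change of each tested member between 21 and 15 hpf in ethanol embryos (left) and control embryos (right), in rows by role with green bars at the medians. In control embryos all 4 tektins lie left of 0 and 15 of 17 dynein heavy chains right of it.

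A second list was matched by the start of ciliary names outside the rule, such as docking, ruler, transition zone and assembly factors. By their first letters it also took Sp-ArL6ip1 and Sp-Arl6ip4L, whose place in the cilium was not established here. The list held 82 tested gene models. Their median log2 fold change was -0.44 at 15 hpf and -0.53 at 18 hpf, with 65 and 64 of 82 negative. All ethanol libraries were below all controls for 26 at 15 hpf (background 7.46%) and 40 at 18 hpf (background 13.8%), and for 22 at both times (background 4.66%). They were above all controls for 2 at 15 hpf (background 6.72%) and 3 at 18 hpf (background 13.5%). The edgeR test without a replicate block called 0 of the 82 for ethanol at 15, 18 or 21 hpf or in the average. At an unadjusted p under 0.05, 22 were lower at 15 hpf (background 6.24%) and 26 at 18 hpf (background 8.2%). Sp-Ccdc65 (L_var_05555), a relative of a nexin-dynein regulatory complex subunit, averaged 30.5 ± 9.83 CPM in ethanol embryos and 62.8 ± 12.7 CPM in control embryos (SD, n = 3 each) at 15 hpf. Sp-Ccdc151 (L_var_22800), a relative of an outer arm docking factor, averaged 108 ± 6.9 CPM in ethanol embryos and 234 ± 22.1 CPM in control embryos (SD, n = 3 each) at 18 hpf. Both were chosen after their values were seen, from the models without overlap at both times. In the average over times 35 of the 82 fell (background 9.86%) and 2 rose (background 8.47%) without both 21 hpf libraries of number 3.

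Of the transcription factors that switch on ciliary genes in vertebrates, neither Sp-FoxJ1 nor Sp-Rfx3 passed the test for ethanol at any time. Sp-FoxJ1 (L_var_17068) had 283, 183 and 191 CPM in ethanol embryos, against 283, 163.9 and 129 CPM in control embryos at 15 hpf and 195, 139 and 166 CPM in ethanol embryos, against 234, 155 and 131 CPM in control embryos at 18 hpf. Its groups overlapped at each time, with log2 fold changes of 0.19 ± 0.32 (SE) at 15 hpf, -0.058 at 18 hpf and -0.26 at 21 hpf. Sp-Rfx3 (L_var_18253) averaged 78 ± 20.9 CPM in ethanol embryos and 88.8 ± 34.4 CPM in control embryos (SD, n = 3 each) at 15 hpf and overlapped there, with -0.19 ± 0.29, and was below all controls in all ethanol libraries at 18 hpf, with -0.24 (adjusted p = 0.673).

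The libraries are whole embryos, so fewer ciliated cells and less RNA per cell cannot be told apart. Some markers of the apical plate and ciliary band differed too. Over 6 apical plate models (2 named FoxQ2, 2 Six3, Nkx2-1 and Z133) the summed level was 337 to 516 CPM in ethanol libraries and 723 to 764 CPM in control libraries at 15 hpf, with 4 of 6 negative. At 18 hpf the sums were 395 to 643 CPM in ethanol libraries and 554 to 641 CPM in control libraries. Sp-Z133 was the only 1 of the 6 that edgeR called at 15 hpf, and it fell (log2 fold change -1.99, adjusted p = 0.0124). Both Six3 models were positive, and 1 of them (L_var_13793) was above all controls in all ethanol libraries at 15 hpf. The 2 Onecut models, of the ciliary band, summed to 44.7 to 65.2 CPM in ethanol libraries and 98.8 to 102.7 CPM in control libraries at 15 hpf, and to 93.5 to 113.6 CPM in ethanol libraries and 181 to 285 CPM in control libraries at 18 hpf. Neither Onecut model was called at these times. L_var_11599 had separate groups at both (edgeR adjusted p = 0.364 and 0.229), and L_var_11694 overlapped at both. The 4 endoderm models and 3 skeletogenic models overlapped in sum between the groups at 15 hpf, and pigment cell models did as well, at 3771 to 8275 CPM in ethanol libraries and 5101 to 5795 CPM in control libraries. At 18 hpf the pigment cell sums were 6986 to 7328 CPM in ethanol libraries and 3478 to 6683 CPM in control libraries. Single models of the endoderm, skeletogenic and pigment cell lists were also above all controls (background 6.72% at 15 hpf and 13.5% at 18 hpf), and none was below. At 18 hpf Sp-Endo16, of the endoderm, had 1323 to 2024 CPM in ethanol libraries and 820 to 981 CPM in control libraries. Sp-Pks1, of pigment cells, had 6211 to 6566 CPM in ethanol libraries and 3148 to 6207 CPM in control libraries. Sp-Alx1, a skeletogenic regulator, was above all controls in all ethanol libraries at 15 hpf, at 103.6 to 180.1 CPM against 42.4 to 95.7 CPM in control libraries, and at 18 hpf (log2 fold changes 0.95 and 1.24, adjusted p = 0.523 and 0.28). Sp-Gcm, a pigment cell regulator, was likewise above them at both times, at 672 to 1149 CPM in ethanol libraries and 501 to 669 CPM in control libraries at 15 hpf (log2 fold changes 0.68 and 0.83, adjusted p = 0.567 and 0.34). No marker model was at 0 in any group, and the part of these territories in the members' levels was not tested.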

How the data were processed

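RNA was extracted with TRIzol from about 150 whole embryos per sample and made into 18 libraries, per the labels' protocols. The authors deposited raw counts per gene model; fastp, STAR and featureCounts are named in the submitters' processing notes, and versions, genome build and strand setting are not given in the sources used here. Library columns carry numbers, which the deposited sample sheet ties to time, treatment and the letters A, B and C, taken as biological replicates 1, 2 and 3. Gene names, coordinates and percent identities come from the deposited annotation. No sequence was used here.

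Counts were fitted in edgeR 4.0.16 (R 4.3.3) with quasi-likelihood tests on 6 group means over all 18 libraries, after filterByExpr (minimum count 10, minimum total count 15) and TMM scaling. Benjamini-Hochberg adjustment ran over 18674 gene models, with a threshold of 0.05. The standard error of a log2 fold change is its size divided by the root of F, an approximation. Log2 CPM used a prior count of 2. Alternatives were limma-voom (limma 3.58.1), DESeq2 1.42.0, other scalings and filters, left-out replicates and a replicate block. The fit was tested on simulated counts. Members and lists were chosen with earlier results of these data known. Members named are, by rule, the one with the highest mean CPM in each role group, those called, and those with the smallest p or largest change per comparison; further members and genes of the second ciliary list were named after their values were seen. Standard deviations rest on 3 samples per group, and 7133636 to 8000894 counts per library set the counting precision.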

Additional observations from a re-analysis of the deposited data

How the results depend on the processing

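Counts of members past the adjusted threshold depended on the fit, while signs of named members mostly did not. DESeq2 called 2 members at 15 hpf, 3 at 18 hpf, 23 in the average over times and 3 for 21 against 15 hpf in ethanol embryos. limma-voom and scaling to library totals alone, the second added after seeing the data, called 0 in the average. Without both 21 hpf libraries of number 3, 3 were called at 18 hpf and 35 in the average. With only the libraries compared, 0 were called for time in control embryos and 2 in ethanol embryos. Leaving out 1 replicate number in all groups gave 0 to 18 in the average. For time it gave 0 to 1 in control embryos and 0 to 1 in ethanol embryos. Shares over all gene models in these fits and in those with only the libraries compared are not given here. Their counts therefore describe the fits and not the members. A mean count of at least 50 in place of 5, leaving out the 5 members whose other hits name another protein, and scaling by relative log expression kept each count within 1.5 times. With no filter except a count above 0, 1 call of a named member was lost.

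Same-numbered ethanol and control libraries deviated together with a correlation over 0.1 in 8 of 9 sets, and 18 of 18 libraries correlated best with their own number, a hint from the data and not from the labels, which do not state a pairing. A fit with the replicate block called 0 members at 15 hpf (background lower 0.359%, higher 0.118%) and 0 at 21 hpf (background 0%). At 18 hpf it called 5, of which 4 were lower (background lower 2.61%, higher 1.46%). In the average it called 30, of which 29 were lower (background lower 12.2%, higher 8.95%). For time it called 8 in control embryos, 2 higher (background 7.35%) and 6 lower (background 5.91%). In ethanol embryos it called 7, 4 higher (background 8.05%) and 3 lower (background 3.97%). Without both 21 hpf libraries of number 3 the replicate block gave 33 at 15 hpf, 31 of them lower (background lower 9.46%, higher 5.95%). It gave 39 at 18 hpf, 34 of them lower (background lower 14.7%, higher 12.2%). At 21 hpf it gave 19, 17 of them lower (background lower 6.03%, higher 4.64%). In the average it gave 49, 41 of them lower (background lower 23.2%, higher 22.2%). For time it gave 12 in control embryos, 9 lower (background 8.26%) and 3 higher (background 10.2%). In ethanol embryos it gave 9, 5 lower (background 4.29%) and 4 higher (background 7.44%). Leaving out 1 replicate number with the block gave 0 to 3 at 15 hpf, 0 to 7 at 18 hpf and 0 to 6 at 21 hpf. It gave 0 to 41 in the average, 1 to 7 for time in control embryos and 2 to 3 in ethanol embryos. Shares over all gene models are not given for these fits, so their counts are not results about the members.

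Signs turned for Sp-Dnah9 and Sp-Ttll11, both near 0 in the average. Sp-Dnah9 was at -0.049 with the replicate block, -0.019 without a filter, -0.046 with limma-voom, -0.0050 without both 21 hpf libraries of number 3 and -0.069 with the block in addition, and -0.054 to 0.106 with 1 replicate left out, among these -0.045 without replicate 3. Its values under the block were -0.107 when replicate 1 was dropped and -0.117 when replicate 3 was. Sp-Ttll11 was at 0.20 with library totals alone and 0.044 without replicate 2. The cause was not tested. Low counts limit Sp-Dnah5 and Sp-Dnah8.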
